A study of Mus musculus with 24 samples.

Results

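The 9 mature oligodendrocyte and myelin genes described here are Mbp, Mog, Mag, Mobp, Cnp, Cldn11, Mal, Opalin and Ugt8a. They were read in mouse cerebellum by 14 probes, taken as every probe whose listed transcript belongs to 1 of the 9 genes, out of 56605 probes on the array. Of those 56605 probes, 32994 could be given a gene symbol. Mbp was read by 3 probes and Mog, Mobp and Ugt8a by 2 probes each, while the other 5 genes had 1 probe each. All 14 probes were well above background on all 24 arrays, so none was lost to the filter on dim probes.

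The study measured total RNA of cerebellum from C57BL/6 mice at postnatal day 28, 1 single-colour array per sample, in 12 groups of 2 arrays. The Derlins sit in the membrane of the endoplasmic reticulum and take part in clearing misfolded proteins from it. Knockout (KO) mice carried Derlin-1 or Derlin-2 alleles flanked by loxP sites together with a Cre recombinase under the nestin promoter, which is active in the precursors of neurons and of glia including oligodendrocytes, but not in microglia. Controls were the floxed mice of the same line, Derlin-1flox/flox or Derlin-2flox/flox. In the Derlin-2 line and in a first Derlin-1 series, whose replicates carry numbers, both genotypes received either 4-phenylbutyrate (4PBA), a chemical chaperone, at 200 mg/kg or water as the vehicle. Injections into the abdomen were daily from day 14 to day 28. In a second Derlin-1 series, whose replicates carry letters, both genotypes either received 4PBA or carry no treatment in their labels, and the latter are called untreated. Their labels name no injection, so in this series 4PBA cannot be told apart from the injections. The same holds for averages of both Derlin-1 series that compare 4PBA with none. Each series lay on its own slide of 8 arrays, and the scan day of the lettered slide differed from that of the remaining slides. Within a slide, position and group cannot be told apart. The labels do not say that the 2 arrays of a group came from separate mice, so the p-values measure the spread between these samples only.

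Oligodendrocytes wrap axons of the central nervous system in myelin, a stack of lipid-rich membrane that speeds conduction. The proteins of this sheath have distinct places: some hold the compacted layers together, some face the axon or the outer surface, some seal the layers, and enzymes supply the lipids and shape the cytoplasmic channels. In the cerebellum most myelin lies in the white matter and around Purkinje cell axons, and much of it forms in the weeks after birth.

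Levels are log2 intensities relative to the 75th percentile of the array, so 0 is that percentile and a difference of 1 is a doubling. Each probe binds with its own efficiency, so levels were compared between arrays. Only the Mbp probes were set against each other, as differences that were then compared between arrays. Differences were tested with limma, a linear model with a moderated spread, over all 38324 probes kept by the filter. P-values are two-sided and adjusted over all tested probes by the Benjamini-Hochberg method, and a probe was called at an adjusted p under 0.05. Derlin-1 differences were taken within each slide and averaged over the numbered and lettered series, where each value has 4 KO and 4 control arrays. In bulk tissue, fewer oligodendrocytes and less RNA per oligodendrocyte cannot be told apart.

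Before the genes themselves, the labels were checked. Derl1 levels overlapped between KO and control arrays of the Derlin-1 line (log2 difference -0.33 without 4PBA, SE 0.15, adjusted p 0.25, limma). In the lettered series the array labelled KO 4PBA b stood with the controls in Derl3 (-1.73, against 0.71 on KO 4PBA a and -1.97 and -1.64 on the 4PBA controls of its slide). Its summed intensity over 10 microglia genes was 11700, against 33400 on KO 4PBA a. In the Derlin-2 line Derl2 (probe A_51_P498831) was at 2.30 on the array labelled KO vehicle 1, against 1.96 to 2.14 on the 4 controls and 1.08 on KO vehicle 2. Derl3 went the other way: it was at -1.26 on this array, against -2.47 to -2.15 on the 4 controls. The KO 4PBA arrays of this line had -1.38 and -1.40, and KO vehicle 2 had -0.01. For KO vehicle 1, the later wording that levels went against the label thus refers to Derl2 only. The counts and medians of the comparisons that rest on either array are given with and without it; over the 14 probes, leaving out the array moved no difference by more than 0.23 on the log2 scale. Of the 5 Schwann cell genes looked at, which mark peripheral myelin, Pmp2 was well above background on no array and 3 on all arrays. Of 13 Hox genes, which mark brainstem tissue, 1 was well above background on all arrays, and Hoxa2 and Hoxd4 were on none.

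Of the 14 probes, 1 was called as lower in Derlin-1 KO mice without 4PBA and none as higher; 4.88% of all tested probes were called in this comparison, 2.51% as lower. The probe reads Mbp, which encodes myelin basic protein, the protein that holds the cytoplasmic faces of compact myelin together. No probe of the 9 genes was called in the same comparison under 4PBA, in either Derlin-2 comparison, or for 4PBA against vehicle or none, where 0.0496% to 0.29% of all probes were called. The direction was nonetheless shared in the KO comparisons under 4PBA: all 14 probes were lower in Derlin-1 KO arrays and 13 of 14 in Derlin-2 KO arrays, with median log2 differences of -0.27 and -0.35, while 52% and 49.5% of all probes were lower.

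**Figure D1:**
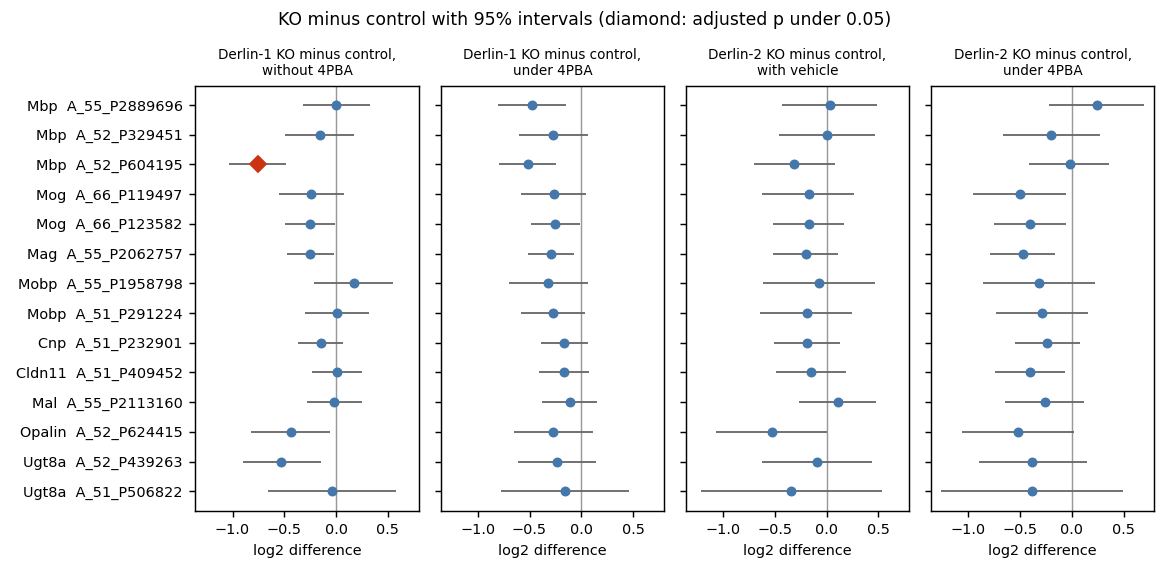
Difference between KO and control (log2, x axis) for the 14 probes of the 9 genes (y axis) in 4 comparisons, with 95% intervals from the linear model; a red diamond marks an adjusted p under 0.05. The Mbp probe A_52_P604195 in Derlin-1 KO without 4PBA, at -0.75, is the only probe called, and under 4PBA all 14 Derlin-1 points lie below 0.

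Mbp was read by 3 probes that did not move alike. On A_52_P604195 the numbered vehicle controls had levels of 2.87 and 2.86 and the KO arrays 2.11 and 2.26. The lettered untreated controls had 2.62 and 2.56 and the KO arrays 1.73 and 1.80. All 4 KO arrays thus lay below all controls of their slide, with no overlap, and the arrays within each group lay within 0.15 of each other. The log2 difference was -0.75 (SE 0.13, adjusted p 0.00747, limma), so the level fell by 40.6%. Within the series it was -0.68 (adjusted p 0.208) in the numbered and -0.82 (adjusted p 0.0551) in the lettered series, so neither series passed by itself.

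The other Mbp probes gave no such difference. A_55_P2889696 differed by 0.00 (SE 0.15, adjusted p 0.999, limma), with a 95% interval from -0.32 to 0.33, and A_52_P329451 by -0.16 (SE 0.15, adjusted p 0.646), with an interval from -0.49 to 0.17. On A_55_P2889696 the numbered controls had 4.27 and 3.92 and the KO arrays 4.36 and 4.35, while the lettered controls had 5.28 and 4.69 and the KO arrays 4.85 and 4.58. On A_52_P329451 the numbered groups had 2.82 and 3.01 against 2.87 and 3.02, and the lettered groups 4.00 and 3.18 against 3.16 and 3.34. On A_55_P2889696 the numbered KO arrays lay just above both controls, and in the other 3 sets KO and control arrays overlapped. The lettered control a was the highest of its 4 arrays on both probes. The array files list 1 Mbp transcript for these 2 probes and another for A_52_P604195. The Mbp gene also gives rise to golli transcripts, which start further upstream and are found in neurons and immune cells as well; which of the transcripts each probe reads was not tested.

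Because the probes disagreed, the level of A_52_P604195 was set against each other Mbp probe on the same array, a comparison chosen after the values were seen. Relative to A_55_P2889696 it was lower in KO arrays without 4PBA by 0.75 on the log2 scale, and relative to A_52_P329451 by 0.59. In both cases the exact two-sided permutation p was 0.0556, the smallest that the 36 rearrangements within series can give. Under 4PBA the same differences were -0.04 (exact p 0.889) and -0.24 (exact p 0.389). With this number of arrays the test could not reach 0.05, and since the contrast was chosen because the probes disagreed, it is a description of that disagreement.

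Under 4PBA the pattern of A_52_P604195 depended on 1 array. The numbered controls had 3.06 and 3.02 and the KO arrays 2.31 and 2.54; the lettered controls had 2.74 and 2.39, KO 4PBA a had 1.78, and the array labelled KO 4PBA b had 2.53. That last array lay between its 2 controls, while the other 3 KO arrays lay below all controls of their slide. The log2 difference was -0.51 (SE 0.13, adjusted p 0.188, limma) with the array labelled KO 4PBA b. Without that array it was -0.70, a value that rests on KO 4PBA a alone for its group. The KO effect under 4PBA minus that without it was 0.24 (SE 0.18, adjusted p 1), with an interval from -0.15 to 0.63, and 0.05 (adjusted p 1) without that array. In Derlin-1 KO arrays 4PBA against vehicle or none gave a difference of 0.31 (SE 0.13, adjusted p 0.858, limma). Leaving out the array labelled KO 4PBA b changed this to 0.13 (adjusted p 1), while it became 0.50 (adjusted p 0.0278) when KO 4PBA a was left out and the array labelled KO 4PBA b stood alone for its group.

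In the Derlin-2 line the Mbp probe A_52_P604195 had 3.49 on both vehicle controls, 3.20 on the array labelled KO vehicle 1 and 3.16 on KO vehicle 2, both below the controls. The difference of -0.31 (SE 0.18) did not pass (adjusted p 0.771, limma), nor did the value of -0.33 (adjusted p 0.749) that rests on KO vehicle 2 alone. With 4PBA the controls had 3.35 and 3.24 and the KO arrays 3.24 and 3.30, a difference of -0.02 (SE 0.18, adjusted p 1). The KO effects of the numbered Derlin-1 series and of the Derlin-2 line with vehicle differed by -0.37 (SE 0.25, adjusted p 0.706; -0.35 and adjusted p 0.754 without that array), so a difference between the lines was not shown. Over the 12 groups the highest mean was that of the Derlin-2 vehicle controls, 3.49, and the lowest that of the lettered untreated Derlin-1 KO arrays, 1.77. Along this order 4 of the 11 steps between neighbouring groups exceeded the pooled SD of 0.18; slide and line differ along it too.

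**Figure D2:**
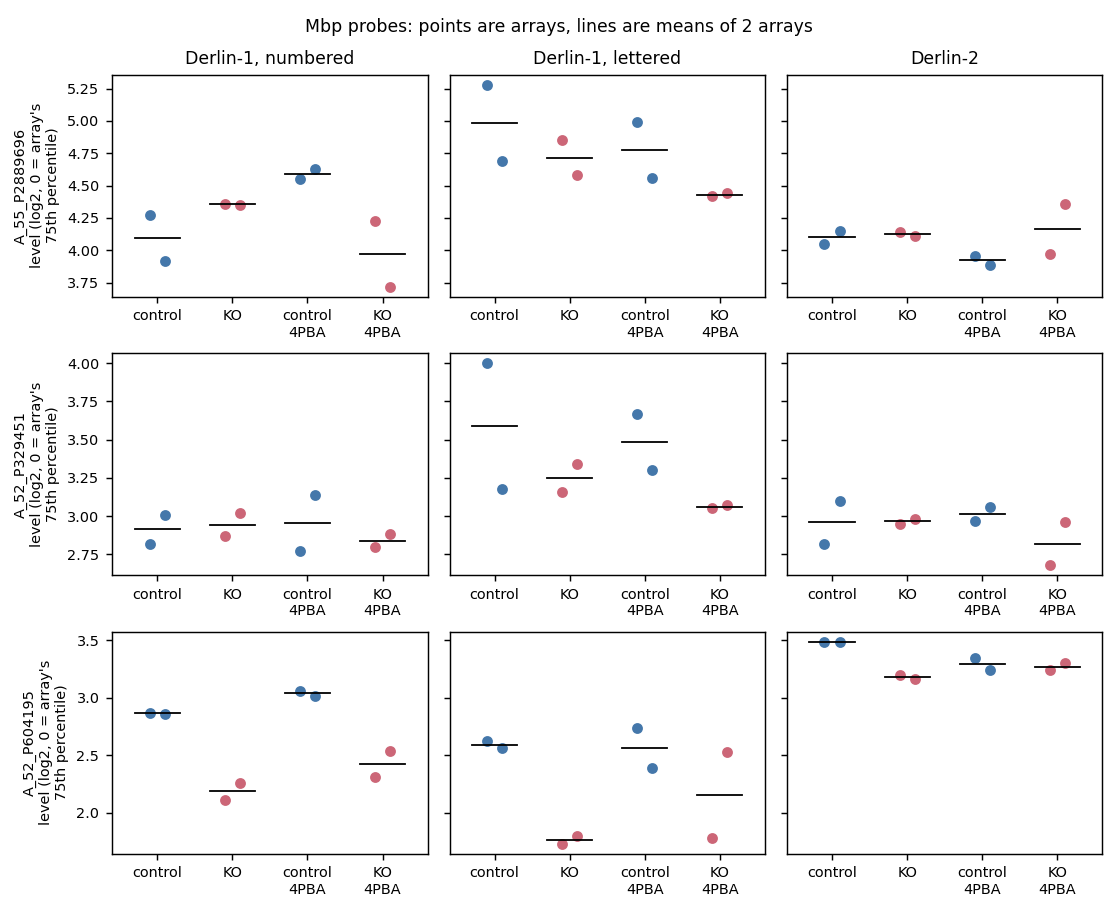
Levels of the 3 Mbp probes (rows; y axes in log2, each with its own range, 0 being the array's 75th percentile) by condition (x axes) in the 3 slides (columns); points are arrays, blue for control and red for KO, and black lines are means of 2 arrays. On A_52_P604195 the Derlin-1 KO arrays without 4PBA, from 1.73 to 2.26, lie below the controls, from 2.56 to 2.87, which the other 2 probes do not show.

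Mobp and Mal are further proteins of compact myelin. Mobp encodes a small basic protein of the cytoplasmic faces, and Mal a proteolipid that takes part in sorting membrane to the sheath. The brighter Mobp probe, A_55_P1958798, had 5.24 and 4.82 in numbered vehicle controls against 5.04 and 5.60 in KO arrays, and 4.97 and 4.75 against 4.76 and 5.04 in the lettered series. KO and control arrays overlapped in both series, and the difference was 0.17 (SE 0.18, adjusted p 0.677, limma). The other Mobp probe, A_51_P291224, differed by 0.01 (SE 0.15, adjusted p 0.983). Under 4PBA the 2 probes differed by -0.32 (adjusted p 0.606) and -0.27 (adjusted p 0.587), and by -0.36 and -0.28 without the array labelled KO 4PBA b.

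Mal had 6.38 and 6.44 in numbered vehicle controls and 6.42 and 6.60 in KO arrays, and 6.12 and 5.92 against 5.74 and 6.02 in the lettered series. The groups overlapped again, and the difference was -0.02 (SE 0.12, adjusted p 0.961, limma), with a 95% interval from -0.28 to 0.25. Its differences were -0.11 (adjusted p 0.857) in Derlin-1 KO under 4PBA, 0.11 (adjusted p 0.937) in Derlin-2 KO with vehicle (-0.15 and 0.02 without the array whose levels went against its label) and -0.26 (adjusted p 1) in Derlin-2 KO under 4PBA.

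Mag, Mog and Cnp formed the tightest group of the 9 genes. Mag encodes the myelin-associated glycoprotein, which faces the axon; Mog encodes a glycoprotein of the outermost layer; and Cnp encodes the phosphodiesterase that keeps cytoplasmic channels open in non-compact myelin. Their start-site windows are shown because these genes moved most closely together over the arrays. RefSeq windows (GRCm38.p6) were found for 8 of the 9 genes, with 10 windows in all; Mbp had no entry. Each run is the 250 bases before a transcript start, 5′ to 3′ on the gene's own strand, and capitals mark a match to a SOX motif (ACAAAG, or CTTTGT on the other strand) or to a MYRF motif (CTGGCAC, both strands searched). SOX10 and MYRF are transcription factors that oligodendrocytes need to make myelin.
Mag, chr7:30914864-30915113, minus strand: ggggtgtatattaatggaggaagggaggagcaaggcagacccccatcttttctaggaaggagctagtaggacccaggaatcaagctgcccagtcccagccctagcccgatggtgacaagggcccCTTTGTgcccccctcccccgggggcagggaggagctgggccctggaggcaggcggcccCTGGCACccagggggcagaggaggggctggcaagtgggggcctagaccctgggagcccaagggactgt
Cnp, chr11:100574689-100574938, plus strand: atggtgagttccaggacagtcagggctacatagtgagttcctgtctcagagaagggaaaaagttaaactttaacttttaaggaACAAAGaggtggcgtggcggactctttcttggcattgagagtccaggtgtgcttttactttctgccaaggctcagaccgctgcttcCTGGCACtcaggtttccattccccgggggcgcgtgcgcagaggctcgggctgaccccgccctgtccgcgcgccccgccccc
Mog, chr17:37023399-37023648, minus strand: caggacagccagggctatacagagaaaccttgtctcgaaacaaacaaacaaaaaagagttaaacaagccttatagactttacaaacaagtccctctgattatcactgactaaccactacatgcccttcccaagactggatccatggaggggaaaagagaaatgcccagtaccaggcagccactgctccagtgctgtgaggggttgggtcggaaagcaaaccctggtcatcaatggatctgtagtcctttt

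Mag has 3 windows, 1 for each start in the table. In the Mag window printed here the SOX match began 126 bases and the MYRF match 68 bases before the start, and in the Cnp window they began 167 and 81 bases before it, so that no 2 of these matches overlap. A second Mag window overlaps the first and holds the same matches 67 and 9 bases before its start, and the third Mag window holds neither motif. The Mog window held neither motif. SOX matches were found in 5 of the 10 windows (of Cnp, Mag, Mobp and Opalin), against 16.5% of all 32851 windows, and MYRF matches in 3 of the 10 (of Cnp and Mag), against 4.19%. Both counts include the overlapping Mag windows. The letters TATAAA, searched on the gene's strand only, were in none of the 10 windows and in 7.59% of all. Such matches describe the letters only.

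Mag had 4.74 and 4.84 in numbered vehicle controls and 4.78 and 4.84 in KO arrays. The lettered controls without 4PBA had 5.42 and 4.96, and the KO arrays 4.55 and 4.81. The numbered groups overlapped and the lettered KO arrays lay below both controls. Averaged over the series the difference was -0.25 (SE 0.10, adjusted p 0.199, limma), from 0.02 in the numbered and -0.51 (adjusted p 0.102) in the lettered series. Cnp gave -0.15 (SE 0.10, adjusted p 0.473) and the 2 Mog probes -0.24 (adjusted p 0.414) and -0.25 (adjusted p 0.23). All 4 of these probes were slightly higher in KO than in control arrays of the numbered series, by 0.02 to 0.10, and lower by 0.36 to 0.57 in the lettered series.

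Under 4PBA the Mag levels were 4.85 and 4.92 in numbered controls against 4.62 and 4.65 in KO arrays, and 5.30 and 5.16 against 4.90 and 4.90 in the lettered series. The groups did not overlap in either series. The difference was -0.29 (SE 0.10, adjusted p 0.369, limma) and stayed at -0.29 (adjusted p 0.271) without the 2 arrays whose levels went against their labels. In the Derlin-2 line with 4PBA Mag had 4.75 and 4.90 in controls and 4.25 and 4.46 in KO arrays, a difference of -0.47 (SE 0.15, adjusted p 0.503) with a 95% interval from -0.79 to -0.16. The 2 Mog probes gave -0.50 (adjusted p 0.861) and -0.40 (adjusted p 0.822) there, and Cnp -0.24 (adjusted p 1).

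Cldn11 and Opalin encode membrane proteins of other parts of the sheath, Cldn11 the claudin of the tight junctions that seal its layers and Opalin a glycoprotein found in mature oligodendrocytes. Cldn11 had 4.67 and 4.90 in numbered vehicle controls and 4.88 and 5.05 in KO arrays, and 5.31 and 4.82 against 4.80 and 4.99 in the lettered series. The groups overlapped, and the difference was 0.01 (SE 0.11, adjusted p 0.986, limma). In Derlin-2 KO arrays under 4PBA it was -0.40 (SE 0.16, adjusted p 0.811), with controls at 4.86 and 5.09 and KO arrays at 4.49 and 4.66.

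Opalin had -0.34 and -0.13 in numbered vehicle controls and -0.63 and -0.36 in KO arrays, and 0.49 and -0.54 against -0.80 and -0.49 in the lettered series. The numbered KO arrays were both below their controls, whereas the lettered control b lay among the KO arrays. The difference was -0.44 (SE 0.18, adjusted p 0.177, limma). Without the lettered control b it was -0.70 and passed (adjusted p 0.0217), a value that rests on control a alone for its group, and without control a it was -0.18 (adjusted p 0.544). In the Derlin-2 line Opalin had 0.03 and 0.24 in vehicle controls, -0.17 on the array labelled KO vehicle 1 and -0.63 on KO vehicle 2. Its difference of -0.53 (SE 0.25, adjusted p 0.72) had the lowest adjusted p of the 14 probes there, and without the array labelled KO vehicle 1 it was -0.76 (adjusted p 0.449). Under 4PBA the Derlin-2 difference was -0.52 (SE 0.25, adjusted p 1), with controls at 0.24 and 0.02 and KO arrays at -0.36 and -0.42.

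Ugt8a encodes the galactosyltransferase that makes galactosylceramide, a main lipid of myelin. On probe A_52_P439263 the numbered vehicle controls had 1.77 and 1.93 and the KO arrays 1.84 and 1.74. The lettered untreated controls had 2.44 and 1.95, KO a had 0.71 and KO b had 1.70. The numbered groups overlapped, and in the lettered series both KO arrays lay below the controls with KO a far lower than KO b. The difference was -0.53 (SE 0.17, adjusted p 0.0998, limma), made of -0.06 in the numbered and -0.99 (adjusted p 0.0726) in the lettered series. Without KO b it was -0.78 (adjusted p 0.00607), a value that rests on KO a alone for its group, and without KO a it was -0.28 (adjusted p 0.364). The second probe, A_51_P506822, put the same 2 arrays on opposite sides of their controls: KO a had -1.63 and KO b 0.19, against -0.36 and -0.80 in the controls, and its difference was -0.04 (SE 0.29, adjusted p 0.967). In Derlin-2 KO arrays under 4PBA the probes gave -0.38 each (adjusted p 1 for both).

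**Figure D3:**
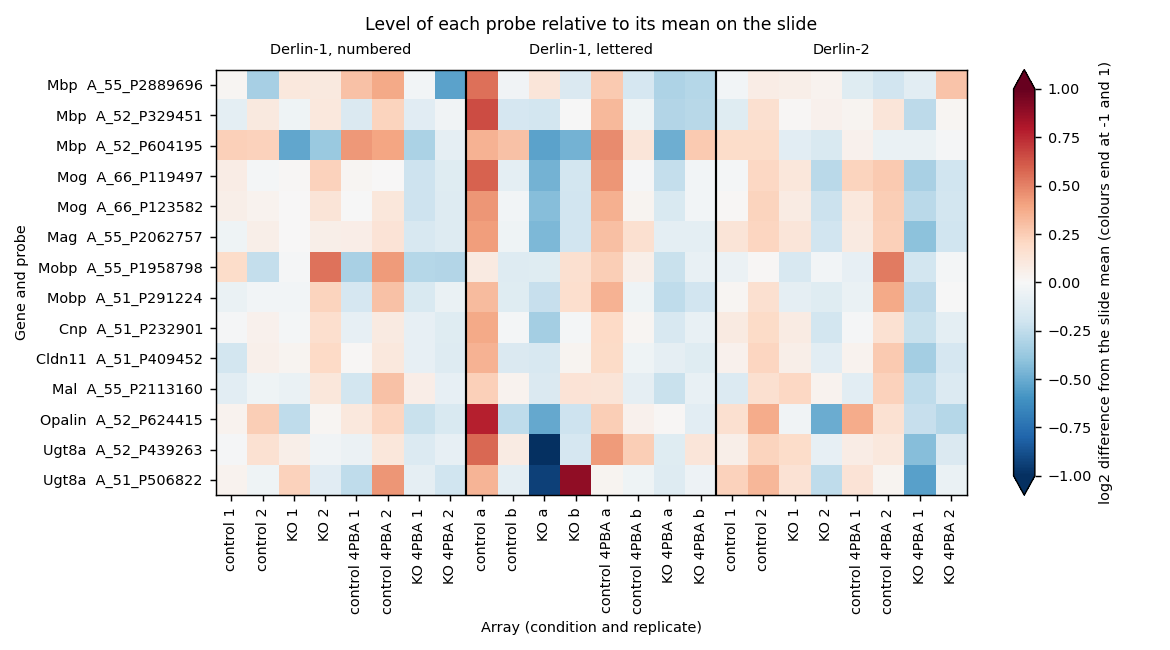
Level of each of the 14 probes (rows) on each of the 24 arrays (columns), as the log2 difference from the probe's mean on its slide; red is above and blue below that mean, colours end at -1 and 1, and black lines separate the slides. Most probes of the lettered series are reddest on control a, the Derlin-2 KO arrays with 4PBA are mostly blue, and the row of Mbp probe A_52_P604195 differs from the rows beside it.

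Set side by side, the counts read as follows. In Derlin-1 KO arrays without 4PBA 10 of 14 probes were lower, with a median log2 difference of -0.15, while 48.1% of all 38318 tested probes were lower. Unadjusted p-values fell under 0.05 for 5 of the 14 and for 20.1% of all probes. The series did not match: in the numbered series 3 of 14 were lower (median 0.06) and 1 had an unadjusted p under 0.05, against 9.88% of all probes, and in the lettered series 13 of 14 were lower (median -0.35) and 7 had one, against 17% of all probes. In limma none of the 14 was called within either series, where 0.0287% and 0.639% of all probes were called. The KO effect was lower in the lettered than in the numbered series on all 14 probes (median -0.37), but this difference was called for none (lowest adjusted p 0.97; 4 with an unadjusted p under 0.05, against 3.44% of all probes; 0.0183% of all probes called). Of all probes 52.6% were lower in this difference.

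Single arrays of the lettered series moved this difference. The mean of the 9 genes relative to the slide was 0.44 on the lettered control a, the highest of the 24 arrays, and -0.07 on control b. The KO arrays of that group had -0.36 and -0.06, so that KO b lay within 0.01 of control b. The median difference of the 9 genes over both series was -0.15 with all arrays, -0.05 without control a, -0.25 without control b, -0.07 without KO a and -0.23 without KO b, and -0.07 under quantile normalization with all arrays. That between the lettered and the numbered series was -0.42 with all arrays, -0.22 without control a, -0.76 without control b, -0.26 without KO a and -0.52 without KO b.

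In Derlin-1 KO arrays under 4PBA all 14 probes were lower (median -0.27; 52% of all probes were lower), both in the numbered (median -0.20) and in the lettered series (median -0.31). None was called (lowest adjusted p 0.188, limma), 4 had an unadjusted p under 0.05 against 9.93% of all probes, and 0.094% of all probes were called. Without the array labelled KO 4PBA b, which leaves KO 4PBA a alone for its group, all 14 were again lower (median -0.28). The summed microglia intensity was 24100 to 31400 in numbered KO arrays against 14000 to 15700 in their controls, and 9 of 10 microglia genes were higher over both series (median 0.87). Of the granule neuron genes 8 of 9 were lower (median -0.22; 5 with an unadjusted p under 0.05), of the cholesterol genes 21 of 22 (median -0.20), and all 6 choroid plexus genes were higher (median 0.54). The part of these in the myelin values was not tested. On 7 of the 14 probes all 4 KO arrays lay below every control of their slide, which held for 3.6% of all probes. These 7 belonged to 6 genes: Mbp (A_55_P2889696), Mog with both probes, Mag, Cldn11, Opalin and Ugt8a (A_52_P439263). Without the array labelled KO 4PBA b, and so with fewer arrays to order, it held for 8 of the 14, the eighth being Mbp A_52_P604195, and for 12.3% of all probes. Without 4PBA the same held for 1 of 14, the called Mbp probe, and for 9.48% of all probes. Since the genes move together over the arrays, the 14 probes are not 14 independent observations. The change of the KO effect with 4PBA was called for none of them (10 of 14 lower; median -0.07; 1 with an unadjusted p under 0.05, against 2.33% of all probes; 0.0418% of all probes called). Without the array labelled KO 4PBA b 11 of 14 were lower (median -0.10).

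In Derlin-2 KO arrays with vehicle 11 of 14 probes were lower (median -0.17) and 49.5% of all probes were. None was called and none had an unadjusted p under 0.05 (lowest adjusted p 0.72, limma), against 0.151% and 6.97% of all probes. On 6 of 14 both KO arrays lay below both controls, as on 23.7% of all probes. Without the array labelled KO vehicle 1, 11 of 14 were again lower (median -0.28), none was called (lowest adjusted p 0.449), and KO vehicle 2 lay below both controls on 10 of 14 and on 39.4% of all probes. Between the numbered Derlin-1 series and the Derlin-2 line, both with vehicle, the KO effect differed by a median of 0.24 over the 14 probes, but none was called (lowest adjusted p 0.699; 0 with an unadjusted p under 0.05; 0.0914% of all probes called). That median was 0.34 without the array labelled KO vehicle 1. Over the 9 genes it was 0.25 with all arrays, 0.38 without that array, 0.08 without KO vehicle 2 and 0.15 without the numbered Derlin-1 KO vehicle 2. For the Derlin-2 line with vehicle the median of the 9 genes was -0.15 with all arrays and -0.24 without the array labelled KO vehicle 1, but also -0.24 without control vehicle 1, -0.06 without control vehicle 2 and -0.05 without KO vehicle 2. Genes of astrocytes and Bergmann glia were lower in 7 of 8 cases in this comparison (median -0.25) and cholesterol genes in 18 of 22 (median -0.17). All 6 choroid plexus genes were higher (median 0.27). The part of these lists in the myelin values was not tested.

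Under 4PBA 13 of 14 probes were lower in Derlin-2 KO arrays (median -0.35), the exception being Mbp A_55_P2889696 at 0.24. None was called (lowest adjusted p 0.503, limma; 0.29% of all probes were called), and 4 had an unadjusted p under 0.05 against 5.15% of all probes. The median of the 9 genes was -0.38 with all arrays, -0.24 without KO 4PBA 1 and -0.49 without KO 4PBA 2. On 10 of 14 probes both KO arrays lay below both controls, against 18.2% of all probes. The change of the KO effect with 4PBA was called for none (11 of 14 lower; median -0.21; 0 with an unadjusted p under 0.05; 0.206% of all probes called). Without the array labelled KO vehicle 1 it was lower on 9 of 14 (median -0.10). Over the 9 genes its median was -0.25 with all arrays, -0.15 without that array, -0.16 without KO 4PBA 1 and -0.14 without control 4PBA 2. Choroid plexus genes moved with these groups: all 6 were higher in the KO arrays (median 1.95), with a summed intensity of 185000 and 199000 against 35500 and 94600 in the controls. These sums ranged from 3260 to 281000 over the 24 arrays. Over the 24 arrays the mean of the 6 choroid plexus genes and that of the 9 myelin genes, both centred on their slide, had a correlation of -0.06. That value spans all groups and does not describe the Derlin-2 4PBA groups alone. The part of choroid plexus in the lower myelin values of these groups was not tested.

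**Figure D4:**
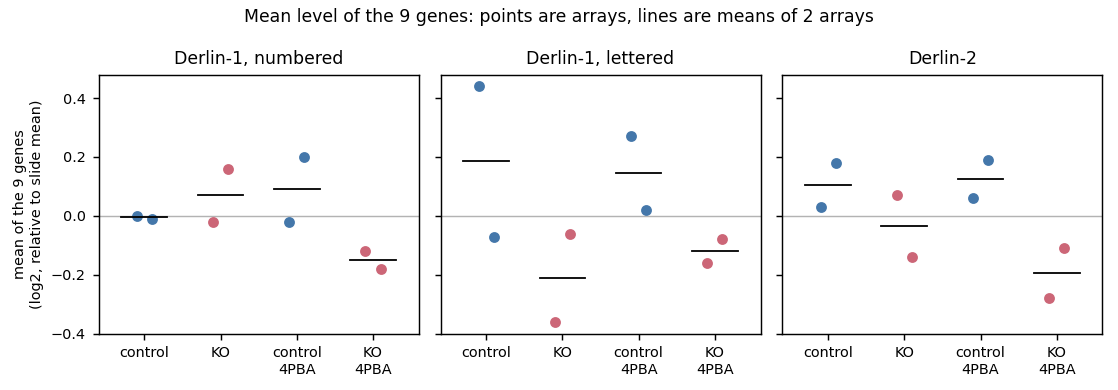
Mean of the 9 genes (y axis, log2 relative to the slide mean, 1 probe per gene) by condition (x axis) in the 3 slides; points are arrays, blue for control and red for KO, and black lines are means of 2 arrays. The KO arrays with 4PBA lie between -0.28 and -0.08 and below their controls in all 3 panels, and the lettered control a is highest at 0.44.

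For 4PBA against vehicle or none the directions were split in controls and mostly downward in KO arrays. In the lettered series 4PBA cannot be told apart from the injections. In Derlin-1 controls 7 of 14 probes were lower and 7 higher, with differences from -0.05 to 0.14, where 50.7% of all probes were lower. The series differed: 11 of 14 were higher in the numbered (median 0.09) and 10 of 14 lower in the lettered controls (median -0.03). In Derlin-2 controls the split was again 7 and 7, from -0.21 to 0.24, where 59.2% of all probes were lower. In Derlin-1 KO arrays 10 of 14 were lower, with a median of -0.07 and a range from -0.36 to 0.31, where 53.6% of all probes were lower. Within the series 13 of 14 were lower in the numbered (median -0.19) and 7 of 14 in the lettered KO arrays (median 0.01). Over both series all 10 microglia genes were lower (median -0.44) and all 6 choroid plexus genes higher (median 1.27). In Derlin-2 KO arrays 11 of 14 were lower, with a median of -0.15 and a range from -0.33 to 0.09, where 57.5% of all probes were lower. All 8 Purkinje cell genes were lower there too (median -0.29), as were 8 of 10 oligodendrocyte transcription factors (median -0.33). So were all 8 genes of oligodendrocyte precursors and newly formed cells (median -0.31), while all 6 choroid plexus genes were higher (median 0.15). The part of such other genes in the myelin values was not tested. The median of the 9 genes there was -0.18 with the 75th percentile, -0.06 under quantile normalization (where that of all probes was -0.05), -0.38 under median scaling (all probes -0.25), and -0.32 without KO vehicle 2 and -0.12 without KO 4PBA 1; it was -0.07 when the array labelled KO vehicle 1 was left out. For the Derlin-1 KO arrays it was -0.06, and between -0.14 and 0.02 over leaving out each array. Without the array whose levels went against its label the medians of the 14 probes were -0.11 (10 of 14 lower) in Derlin-1 and -0.04 (9 of 14 lower) in Derlin-2 KO arrays. In limma none of the 14 was called in any of the 4 comparisons, in which 0.0496%, 0.279%, 0.0809% and 0.256% of all probes were called in the order just given; unadjusted p-values under 0.05 numbered 0, 0, 2 and 0, against 2.41%, 7.18%, 5.61% and 8.89% of all probes.

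Over the 24 arrays, each probe centred on its slide mean, the 13 probes other than A_52_P604195 had pairwise correlations of 0.14 to 0.98 with a median of 0.62. Mag correlated at 0.92 with Cnp and at 0.91 and 0.95 with the Mog probes. A_52_P604195 correlated with the 13 others at 0.07 to 0.60, with a median of 0.37. All of these are descriptions over arrays that share slides and groups. Across the 12 groups, the steps between neighbours in the order of means exceeded the probe's pooled SD in 0 to 2 of 11 cases for the 13 other probes. Their group means were highest in lettered controls for 9 of them and in other groups for 4.

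The genes outside the 9 that moved most like their mean were sought among 14648 genes well above background on all arrays. The 10 closest were Kcnu1 (correlation 0.91), Fa2h (0.91), Elovl1 (0.90), Nipa1 (0.89), Gsn (0.88), Prdx4 (0.86), Plin3 (0.86), Gss, Stmn4 and AI593442 (0.85 each), all over 24 slide-centred arrays. Fa2h encodes the hydroxylase of myelin lipids and Elovl1 an elongase of very long-chain fatty acids. Fa2h differed by -0.21 in Derlin-1 KO arrays without 4PBA and by -0.43 in Derlin-2 KO arrays under 4PBA. Fa2h, Elovl1 and Gsn also stand in the lists of oligodendrocyte genes described next. The genes closest to A_52_P604195, sought after its values were seen, were others: Sdc1 (0.96), Pacsin3 and Sh3bgr (0.95 each), then Scx, Plch1, Rab26, Lypd6 and Mmp17 (0.94 each), Asgr1 and Plekha5 (0.93 each). All 10 were called as lower in Derlin-1 KO arrays without 4PBA, by 0.46 (Pacsin3) to 2.01 (Sh3bgr) on the log2 scale, which follows from being chosen for likeness to a probe that was called there.

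Other genes of oligodendrocytes were read through lists, with 1 probe per gene. In Derlin-1 KO arrays without 4PBA 4.88% of all probes were called, 2.51% as lower, and 20.1% had an unadjusted p under 0.05 (limma). In Derlin-1 KO arrays without 4PBA none of 16 further membrane and junction genes was called (median 0.01; 5 with an unadjusted p under 0.05, limma), nor any of 13 genes of myelin lipid synthesis and oligodendrocyte metabolism (median -0.13; 3 with one). Of 13 other mature oligodendrocyte genes 10 were lower and 2 of these called: Klk6, a serine protease, by 1.02 (SE 0.24, adjusted p 0.027) and Tubb4a, a tubulin, by 0.65 (SE 0.11, adjusted p 0.00747), with a list median of -0.10. None of 10 transcription factors of the lineage (median 0.08; 1 with an unadjusted p under 0.05) and none of 8 genes of precursors and newly formed cells (median 0.04; 2 with one) was called. Of 22 cholesterol biosynthesis genes, whose product is a main component of myelin and of all other cell membranes, 21 were lower (median -0.42), 13 of them called, led by Stard4 (-0.85, adjusted p 0.00994), Cyp51 (-0.81, adjusted p 0.0072) and Tm7sf2 (-0.69, adjusted p 0.00502). The series differed here too, with the KO effect lower in the lettered series for 20 of 22 cholesterol genes (median difference -0.37). This held for 12 of 13 other mature oligodendrocyte genes (median -0.40) but for 4 of 10 transcription factors (median 0.07). No gene of these lists was called for this difference between series.

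In the other 7 comparisons of KO with control or of 4PBA with none, no gene of these lists was called in limma, where at most 0.29% of all probes were. Unadjusted p-values were under 0.05 for 10 of the 82 genes in Derlin-1 KO arrays under 4PBA (9.93% of all probes), 3 in Derlin-2 KO arrays with vehicle (6.97%) and 13 in those under 4PBA (5.15%). For 4PBA against vehicle or none they were under 0.05 for 2 in Derlin-1 controls (2.41%), 13 in Derlin-1 KO arrays (5.61%), 2 in Derlin-2 controls (7.18%) and 15 in Derlin-2 KO arrays (8.89%). In Derlin-2 KO arrays under 4PBA, where 13 of the 14 myelin probes were lower, the list medians were -0.26 for membrane and junction genes, -0.27 for lipid and metabolism genes, -0.21 for other mature oligodendrocyte genes (13 of 13 lower), -0.26 for the transcription factors, -0.22 for precursors and newly formed cells and -0.02 for the cholesterol genes (13 of 22 lower, 0 with an unadjusted p under 0.05). The 8 Purkinje cell genes were lower as well, with a median of -0.15 and 0 with an unadjusted p under 0.05. The median of all probes there was 0.00.

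Some genes of other cell types changed in the same comparison as the called Mbp probe, where 4.88% of all probes were called and 20.1% had an unadjusted p under 0.05 (limma). In Derlin-1 KO arrays without 4PBA all 10 microglia genes were higher (median 1.43) and 8 of them called. Of 8 genes of astrocytes and Bergmann glia 4 were higher and 4 lower (median 0.02), with 1 called, Gfap, higher by 1.24 (SE 0.19, adjusted p 0.00502, limma). All 9 granule neuron genes were lower (median -0.31; 7 with an unadjusted p under 0.05), and 2 were called, Gabra6 by 0.76 (adjusted p 0.0122) and Neurod1 by 0.68 (adjusted p 0.00823). The other 3 cell type lists held no called gene: 8 Purkinje cell genes had a median of -0.06 (2 with an unadjusted p under 0.05), 4 Schwann cell genes one of 0.20 and 6 choroid plexus genes one of -0.46 (0 with one in both). Of the Hox genes 2 could be tested and neither was called. The summed microglia intensity was 27600 to 29100 in numbered and 30700 to 41000 in lettered KO arrays, against 13600 to 14400 and 14500 to 16500 in controls.

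Over the 24 slide-centred arrays A_52_P604195 had a correlation of -0.87 with the mean of the microglia genes, 0.86 with that of the granule neuron genes and 0.81 with that of the cholesterol genes. The mean of the 9 genes had correlations of -0.32, 0.43 and 0.72 with the same lists and 0.91 with the other mature oligodendrocyte genes. These values share arrays and groups and carry no test. The part of microglia, granule neurons or astrocytes in the lower level of A_52_P604195 was not tested.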

How the data were processed

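Agilent arrays were read with Feature Extraction 10.7.1.1, per the submitters' processing notes. The deposited value used was the processed signal, a linear intensity after background correction, per the file headers; the authors' series table held the same intensity values on the 56305 probes with 1 spot (largest log2 difference 1.74e-06). Genome build names in the headers differ from the GRCm38.p6 tables, so array coordinates are not given.

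Control spots were left out and outlier-flagged spots treated as missing (none on a probe of the 9 genes; no spot was saturated). The log2 intensity of repeated spots was averaged per probe, and the array's 75th percentile over 56605 probes was subtracted (between 601 and 801 on the intensity scale). Between 57.7% and 68.4% of spots were well above background. Probes well above background on both arrays of at least 1 group entered limma 3.58.1 (R 4.3.3, data.table version 1.17.8) with 12 group means, 12 residual and 1.92 prior degrees of freedom. The number of arrays limits precision: the median SE was 0.14 for Derlin-1 and 0.2 for Derlin-2 comparisons. Levels across slides were normalized only by the percentile.

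Groups came from the sample titles. All probes of the 9 genes were named; of other lists, called genes with at most the 5 largest changes, and the 10 genes closest to the mean of the 9; the brightest probe stood for a gene. Members and lists were chosen with earlier results of these data known. Alternatives were quantile, median and normexp processing (on the median spot signal, the mean signal was not used here), filters, outlier spots, an intensity trend, subsets of slides, a replicate block, slide as a block, 1 probe per gene, the values of the authors' series table, and leaving out each array. Tested on simulated data for Derlin-1 KO without 4PBA, with 200 of 38324 probes changed, the fit recovered 20.5% of changes of 0.5 and 68% of changes of 1 (log2), with 8.89% and 4.9% of calls false.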

Additional observations from a re-analysis of the deposited data

How the results depend on the processing

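The called Mbp probe A_52_P604195 in Derlin-1 KO without 4PBA kept its direction under all 21 other settings, from -0.87 to -0.68, and passed in 18. It did not pass with only the slides compared (-0.75, adjusted p 0.0555) or in the numbered (-0.68, adjusted p 0.208) or lettered series alone (-0.82, adjusted p 0.0551). The count of called probes, 1, was 0 in these 3 settings and with 1 probe per gene, where another Mbp probe stands for the gene, and 1 to 2 over leaving out each array in turn (2 without lettered control b or lettered KO b). Under 4PBA the Derlin-1 KO count of 0 became 1 without both arrays whose levels went against their labels, an alternative chosen after seeing the data, and lay between 0 and 1 over leaving out arrays; so did that of 4PBA in Derlin-1 KO. The number of all probes called, 1871 in Derlin-1 KO without 4PBA, lay between 397 (without lettered KO a) and 3236 (without lettered KO b) over leaving out arrays, and was 272 with only the slides compared, 245 in the lettered and 11 in the numbered series alone. Counts of called myelin probes in the other 9 comparisons were 0 under all settings run. In all, 233 counts stayed and 9 moved; of single-probe values 3175 stayed, 145 moved without a change of call, 3 no longer passed, 5 newly passed, and no called value changed sign. Values that were not called did change sign, such as Mag in Derlin-1 KO without 4PBA, from -0.25 to 0.02 in the numbered series alone.

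Same-numbered arrays correlated over 0.1 in 2 of 6 pairs in the numbered, 4 of 6 in the lettered and 1 of 6 in the Derlin-2 slide. The highest value was 0.64, between the lettered control a and control 4PBA a. An effect shared by arrays of the same replicate letter was thus not excluded on the lettered slide. With the replicate number as a block, 1 probe was called in Derlin-1 KO without 4PBA (A_52_P604195, -0.75, adjusted p 0.0136), and no count changed.

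Median scaling moved the median of all probes in Derlin-1 KO without 4PBA to -0.11 and that of the 9 genes to -0.27, a relative -0.16, as with the 75th percentile, while quantile normalization gave -0.07 for the 9 genes, a relative -0.06; for 4PBA in Derlin-2 controls and KO median scaling moved all probes to -0.15 and -0.25. Small changes are limited by 2 arrays per group.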
